A study of Mus musculus with 16 samples.

Results

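The 10 genes described here handle fatty acids in mouse liver and are known for their induction by the nuclear receptor PPARα: Ppara itself, Creb3l3, Fgf21, Cd36, Acot1, Acot3, Cyp4a10, Cyp4a14, Pdk4 and Vnn1. They were found by symbol among the 53372 genes of a table of raw read counts, each at 1 row, and all 10 passed the filter on low counts. They had been chosen with the differences between these libraries known, so their levels, fold changes and calls are descriptions, and none of them is support for a response of the receptor. The libraries come from livers of FVB/NCrl mice in 4 groups, each of them 1 pool of livers that gave 4 analytical replicate libraries. The CTRL animals were untreated (0 mg/L), and C1, C2 and C3 received diphenyl phosphate (DPhP), a known metabolite of organophosphate flame retardants, at 0.1, 1 and 10 mg/L. The labels used here do not give the route, the sex and age of the mice or the number of livers in a pool. With 1 pool a group, concentration and pool cannot be told apart, and any p-value measures the spread between analytical replicates, not between animals.

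PPARα is a ligand-activated transcription factor of hepatocytes that binds fatty acids and pairs with RXRα on the DNA of its target genes. In fasting it raises the enzymes that take up, activate and oxidise fatty acids and the hormone FGF21. CREB3L3 is a transcription factor of the endoplasmic reticulum membrane that acts with PPARα on several of the same targets.

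A PPARα response element is a direct repeat of AGGTCA with a single base between the repeats. RefSeq promoter windows on GRCm38, which run from 250 bases before to 50 bases after a transcript start, matched 7 of the 10 genes and were searched on both strands for AGGTCANAGGTCA with up to 2 mismatches. A match was found in a window of Cd36 and in a window of Creb3l3, and 3.875% of all 32544 windows held one. These windows are shown because a match stands before Cd36, whose level was less than 0.5 times that of CTRL in each treated pool, and also before Creb3l3, which was called in none. Capitals mark the match, and each window is written from 5′ to 3′ on the minus strand, the strand of the gene. Both starts lie within the annotated gene, and the other window of Creb3l3 held no match. The Cd36 window lies at chr5:17835847-17836146, with the match read on the opposite strand 63 bases before the start. The Creb3l3 window lies at chr10:81092542-81092841, with the match 209 bases before the start. A match describes letters and does not show binding.
Cd36: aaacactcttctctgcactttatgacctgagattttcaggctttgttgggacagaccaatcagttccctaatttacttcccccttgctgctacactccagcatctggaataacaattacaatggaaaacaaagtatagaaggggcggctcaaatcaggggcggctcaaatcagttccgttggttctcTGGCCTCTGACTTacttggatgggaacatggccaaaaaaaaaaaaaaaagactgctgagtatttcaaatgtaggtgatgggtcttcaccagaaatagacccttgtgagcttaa
Creb3l3: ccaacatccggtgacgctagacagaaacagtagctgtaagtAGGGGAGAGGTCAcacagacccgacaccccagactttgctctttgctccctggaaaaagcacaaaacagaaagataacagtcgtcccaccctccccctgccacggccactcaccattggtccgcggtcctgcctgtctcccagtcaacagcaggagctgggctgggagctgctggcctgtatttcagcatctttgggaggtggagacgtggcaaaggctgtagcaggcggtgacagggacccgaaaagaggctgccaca

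Cyp4a10 and Cyp4a14 are neighbours on chromosome 4, with 22121 bases between them, and encode closely related enzymes. Their coding sequences, taken from GENCODE M21, were identical at 1154 of 1517 aligned bases (76.1%), and the longest identical run was 23 bases. Their first 90 coding bases are shown because they bear on whether reads of the pair can be told apart, and capitals mark the bases that differ.
Cyp4a10: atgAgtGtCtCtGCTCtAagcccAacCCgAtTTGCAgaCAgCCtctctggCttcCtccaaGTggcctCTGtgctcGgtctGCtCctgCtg
Cyp4a14: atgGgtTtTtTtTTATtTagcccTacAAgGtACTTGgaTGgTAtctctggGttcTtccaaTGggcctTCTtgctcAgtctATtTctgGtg

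No stretch of 50 bases was shared between the transcripts of this pair, yet Cyp4a10 shared 30.5% of its stretches of that length with other genes, mainly Cyp4a32 and Cyp4a31. Acot1 and Acot3 are neighbours on chromosome 12, 33772 bases apart and identical at 84.0% of aligned coding bases. Acot1 shared 33.6% of its 50-base stretches with other genes, among them 23.7% with Acot2, and Acot3 shared 19.5%. The labels do not say how reads that match several genes were counted, so Cyp4a10, Acot1 and Acot3 are uncertain in that respect. The transcripts of Vnn1, Cd36, Ppara, Fgf21 and Creb3l3 shared no such stretch with another gene, and those of Cyp4a14 (0.245%) and Pdk4 (1.43%) shared little.

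Levels are given as CPM, the read count relative to the TMM-scaled size of the library, with SD over 4 libraries, and log2 fold changes are those of edgeR with their SE. Gene coordinates are those of GENCODE M21 on GRCm38. A gene is said to be called where its Benjamini-Hochberg adjusted p over the 17810 genes tested was under 0.05. Totals ran from 14434761 (C1-3) to 45109243 (C2-1) counts. Protein-coding genes held 59.4% of the counts in C2-4, 75.5% in C2-3 and 81.9% in C3-4, and from 77.3% (C1-3) to 87.7% (CTRL-2) in the other libraries. The mean log2 CPM of 4 nuclear-retained RNAs, which may differ with RNA quality, a link not tested here, was 10.15 in C2-3, 10.07 in C2-4 and 9.97 in C3-4. In the other treated libraries it was 9.02 to 9.39 in C1, 8.88 and 9.03 in C2 and 9.10 to 9.23 in C3, against 8.44 to 9.01 in CTRL. Of these RNAs 3 were called higher in C2, where 8.03% of all genes were called higher. All treated libraries of Neat1 lay above those of CTRL. Summed hepatocyte markers were lower in the pair from C2 than in the other C2 libraries by 1.04 on the log2 scale, and lower in C3-4 than in the other C3 libraries by 0.67. Hepatocyte identity was present throughout, with Alb between 17620 and 53697 CPM. The part of these RNAs in each result was not tested. For the 10 genes, values without C2-3, C2-4 and C3-4 are given where they move a call or a direction, and in some cases a size. In such bulk RNA, fewer cells of a type and less RNA per cell cannot be told apart.

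Of the 10 genes, 1 was called higher and 3 lower in C1, where 2.32% of all genes were called, 0.938% higher and 1.39% lower. In C2, 1 was called higher and 4 lower, with 18.3% of all genes called, 8.03% higher and 10.2% lower. In C3, 0 were called higher and 4 lower, with 1.4% of all genes called, 0.522% higher and 0.876% lower. These shares are given as background only, since the genes were chosen on the same contrasts. Over the 10 genes the median log2 fold change was -0.48 in C1 (all genes 0.01), -0.46 in C2 (all genes 0.03) and -0.55 in C3 (all genes 0.00). Vnn1 and Cd36 were called lower in each treated pool and Pdk4 was called higher in C1 and C2, whereas Ppara, Creb3l3, Fgf21, Acot3 and Cyp4a10 were called in none. Without C2-3, C2-4 and C3-4, 1 gene was called higher and 5 lower in C1, 1 higher and 4 lower in C2, and 0 higher and 6 lower in C3, where 14.6%, 28% and 6.09% of all genes were called.

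**Figure D1:**
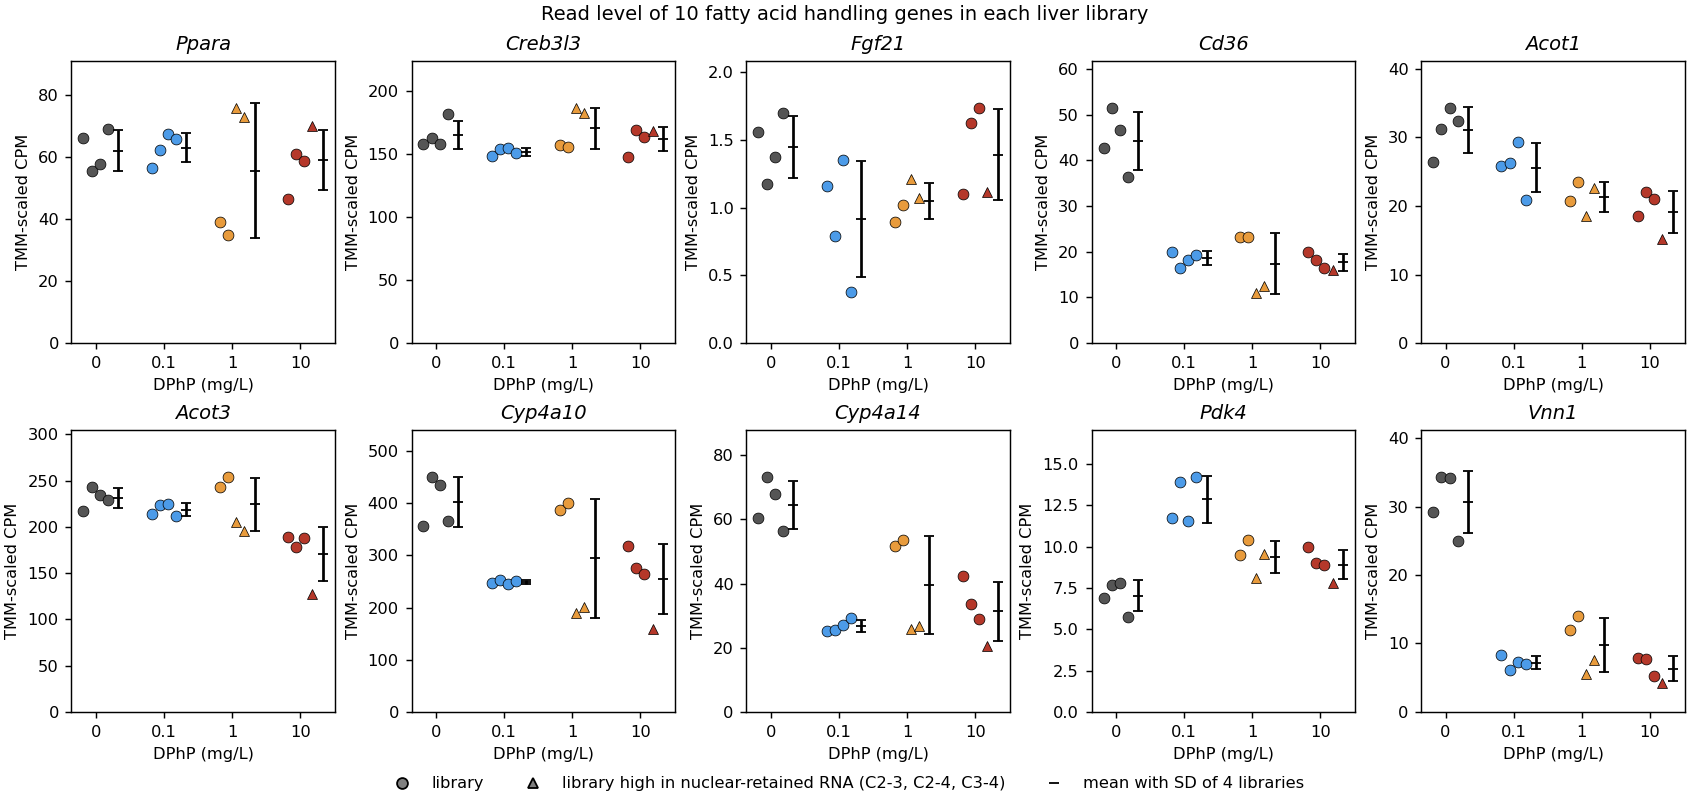
TMM-scaled CPM (y axis, from 0) of each of the 10 genes in every library by DPhP concentration (x axis, mg/L), with the mean and SD of 4 libraries as bars and triangles for the 3 libraries high in nuclear-retained RNA. All treated libraries of Vnn1 and Cd36 lie below every CTRL library, and those of Pdk4 in C1 and C2 lie above. Cyp4a10, Cyp4a14, Vnn1, Cd36 and Ppara divide into pairs within C2.

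The receptor gene Ppara, on chromosome 15 (85734983 to 85802819), was read at 66.0, 55.5, 57.6 and 69.1 CPM in the 4 CTRL libraries and at 56.5, 62.4, 67.3 and 65.9 CPM in C1. It stood at 39.0, 34.7, 75.7 and 72.7 CPM in C2 and at 46.4, 61.1, 58.7 and 69.9 CPM in C3. The groups overlapped in every comparison, and the spread of C2 was much wider than that of the others, with C2-3 and C2-4 high and the other pair low. The log2 fold change against CTRL was 0.02 ± 0.21 in C1, -0.16 ± 0.21 in C2 and -0.07 ± 0.21 in C3. Without C2-3, C2-4 and C3-4 it was -0.74 in C2 and was called.

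Creb3l3, on chromosome 10 (81084324 to 81098874), encodes the transcription factor that acts beside PPARα. Its mean was 165 ± 11.2 CPM in CTRL, 152 ± 3.17 CPM in C1, 170 ± 16.4 CPM in C2 and 162 ± 9.75 CPM in C3. Its log2 fold change against CTRL was -0.12 ± 0.10 in C1, 0.05 ± 0.10 in C2 and -0.03 ± 0.10 in C3. None was called, and the C2 value was -0.06 without C2-3, C2-4 and C3-4. The C1 libraries lay just below those of CTRL, and those of C2 and C3 overlapped them. The 95% interval of the change reached no further than -0.32 on the lower side in C1 and 0.25 on the upper side in C2.

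Fgf21, a hormone gene of fasting liver on chromosome 7 (45613886 to 45615490), was read at 8 to 44 counts a library. It stood at 1.56, 1.17, 1.37 and 1.70 CPM in CTRL and at 1.16, 0.788, 1.35 and 0.379 CPM in C1. The values were 0.893, 1.02, 1.21 and 1.07 CPM in C2 and 1.10, 1.62, 1.73 and 1.11 CPM in C3. The treated libraries overlapped those of CTRL, and library C1-4 was the lowest of all. The log2 fold change was -0.67 ± 0.30 in C1, -0.48 ± 0.29 in C2 and -0.07 ± 0.28 in C3. None was called, and the C3 value was 0.01 without C2-3, C2-4 and C3-4.

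Cd36 encodes a fatty acid translocase of the plasma membrane and lies on chromosome 5 (17781690 to 17888801). It was read at 42.7, 51.4, 46.6 and 36.4 CPM in CTRL and at 20.0, 16.5, 18.3 and 19.4 CPM in C1. It stood at 23.2, 23.1, 10.98 and 12.4 CPM in C2 and at 20.0, 18.3, 16.4 and 16.005 CPM in C3. Every treated library was below every CTRL library, and the treated groups overlapped one another. Cd36 changed by -1.25 ± 0.20 in C1, by -1.33 ± 0.20 in C2 and by -1.32 ± 0.20 in C3 on the log2 scale, so the level was 0.419, 0.398 and 0.399 times that of CTRL. The gene was called in each comparison whichever single library was left out and under each other setting tried. In C2 the change was -0.92 without C2-3, C2-4 and C3-4, and Cd36 in the C2 pair of these was lower than in the other C2 libraries by 0.99 on the log2 scale.

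The thioesterases release free fatty acids from their CoA esters, Acot1 in the cytosol and Acot3 in peroxisomes. Acot1, on chromosome 12 (84009490 to 84018371), was read at 26.4, 31.2, 34.3 and 32.3 CPM in CTRL and at 25.8, 26.3, 29.4 and 20.8 CPM in C1. It stood at 20.8, 23.5, 18.6 and 22.6 CPM in C2 and at 18.5, 22.0, 21.0 and 15.1 CPM in C3. The C1 libraries overlapped those of CTRL, while all libraries of C2 and C3 lay below them. In C1 the log2 fold change was -0.28 ± 0.13 and not called, and it was -0.54 ± 0.13 in C2 and -0.70 ± 0.13 in C3, both called. The C3 call was lost without CTRL replicate 3 (-0.65), and the C2 call held with each library left out. The C1 change was also called without C2-3, C2-4 and C3-4 (-0.30). The mean levels followed the order of concentration, from CTRL down to C3, yet neighbours in that order overlapped.

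Acot3, on chromosome 12 (84052144 to 84060402), was called by edgeR in none of the comparisons. It stood at 217, 243, 235 and 229 CPM in CTRL and at 214, 224, 225 and 212 CPM in C1. The values were 243, 254, 205 and 196 CPM in C2 and 189, 178, 188 and 127 CPM in C3. Only the C3 libraries all lay below those of CTRL, with C3-4 the lowest of the 16. Acot3 had a log2 fold change of -0.08 ± 0.13 in C1, -0.04 ± 0.13 in C2, and -0.44 ± 0.13 in C3. In C3 it was called by DESeq2 (-0.44) and by edgeR without C2-3, C2-4 and C3-4 (-0.33), a fit in which the C2 value was 0.12.

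Cyp4a10 and Cyp4a14 encode hydroxylases that oxidise the omega end of fatty acids in the endoplasmic reticulum. Cyp4a10, on chromosome 4 (115518264 to 115533649), was the most abundant of the 10 genes per length, at 190.5 ± 22.6 CPM per kilobase of exon in CTRL, with Acot3 next at 67.2 ± 3.22 and Fgf21 last at 1.52 ± 0.241 on that scale. It stood at 357, 451, 434 and 365 CPM in CTRL and at 246, 254, 245 and 251 CPM in C1. The values were 387, 400, 189 and 202 CPM in C2 and 317, 276, 264 and 160 CPM in C3. All libraries of C1 and C3 were below those of CTRL, and C2 divided into C2-1 and C2-2 at CTRL levels and C2-3 and C2-4 well below. Its log2 fold change was -0.69 ± 0.23 in C1, -0.45 ± 0.23 in C2 and -0.66 ± 0.23 in C3. None of these was called. Without C2-3, C2-4 and C3-4 it was -0.70 in C1 and -0.49 in C3, both called, and -0.02 in C2. The C1 change was also called in a fit of only C1 and CTRL (-0.68).

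Cyp4a14, on chromosome 4 (115486200 to 115496142), was read at 60.5, 73.3, 67.9 and 56.3 CPM in CTRL and at 25.2, 25.5, 27.2 and 29.2 CPM in C1. It stood at 51.8, 53.6, 25.9 and 26.7 CPM in C2 and at 42.5, 33.8, 29.0 and 20.4 CPM in C3. Every treated library was below every CTRL library, and C2 again divided into the same pairs. Cyp4a14 had a log2 fold change of -1.27 ± 0.23 in C1, -0.70 ± 0.23 in C2, and -1.04 ± 0.23 in C3. All 3 were called. The C1 call held with any library left out and under each other setting tried, whereas the C2 call was kept under 4 of 10 other settings and the C3 call under 9. The C2 call was lost without C2 replicate 3 (-0.52) or 4 (-0.56) or any one CTRL replicate (-0.61 to -0.76), and without C2-3, C2-4 and C3-4 the change was -0.28. The C3 call was lost without C3 replicate 2 (-1.06), 3 (-0.99) or 4 (-0.87) or any one CTRL replicate (-0.96 to -1.10), and it was kept without C2-3, C2-4 and C3-4 (-0.88).

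The ratio of the counts of this pair within a library does not depend on scaling. Cyp4a10 had 6.23 ± 0.266 times the counts of Cyp4a14 in CTRL, 9.33 ± 0.635 times in C1, 7.45 ± 0.109 times in C2 and 8.15 ± 0.706 times in C3. The lowest ratio of any treated library, 7.30 in C2, lay above the highest of CTRL, 6.49. Within C2 the ratio lay between 7.30 and 7.56 although the level of each gene differed 2-fold between the pairs of libraries. The ratio was examined after its values were seen and was not tested. It may depend on how reads that match several genes were counted, which is not known. Cyp4a10 shared 30.5% of its 50-base stretches with other genes and Cyp4a14 0.245%.

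Pdk4 encodes a kinase that inactivates pyruvate dehydrogenase and so spares glucose when fatty acids are burned, and it was the 1 gene called higher. On chromosome 6 (5483351 to 5496309), it was read at 6.88, 7.69, 7.82 and 5.74 CPM in CTRL and at 11.7, 13.9, 11.5 and 14.2 CPM in C1. It stood at 9.51, 10.4, 8.07 and 9.53 CPM in C2 and at 9.99, 9.01, 8.87 and 7.79 CPM in C3. The libraries of C1 and C2 were all above those of CTRL, and those of C1 were also above all libraries of C2 and C3. Pdk4 had a log2 fold change of 0.87 ± 0.13 in C1, which was called with any library left out, and of 0.42 ± 0.13 in C2, also called. The C2 call was lost without C2 replicate 1 (0.41), 2 (0.36) or 4 (0.41) and without CTRL replicate 1 (0.40) or 4 (0.33), and it was kept under 8 of 10 other settings. In C3 the change was 0.34 ± 0.13 and not called.

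Vnn1 encodes a membrane-bound pantetheinase, which recycles pantothenate, the vitamin precursor of CoA. On chromosome 10 (23894688 to 23905343), it was read at 29.3, 34.4, 34.1 and 24.97 CPM in CTRL and at 8.34, 6.08, 7.27 and 7.02 CPM in C1. It stood at 11.98, 14.0, 5.59 and 7.52 CPM in C2 and at 7.88, 7.77, 5.30 and 4.28 CPM in C3. The highest treated library, C2-2, was well below the lowest CTRL library. Vnn1 had a log2 fold change of -2.09 ± 0.24 in C1, -1.62 ± 0.24 in C2, and -2.28 ± 0.24 in C3, the widest of the 10 genes in each comparison. The level was 0.235, 0.324 and 0.206 times that of CTRL. The calls held with each library left out and under each other setting tried, and C2-3 and C2-4 were lower than the other C2 pair by 0.99 on the log2 scale. Without C2-3, C2-4 and C3-4 the change was -1.23 in C2 and -2.13 in C3.

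**Figure D2:**
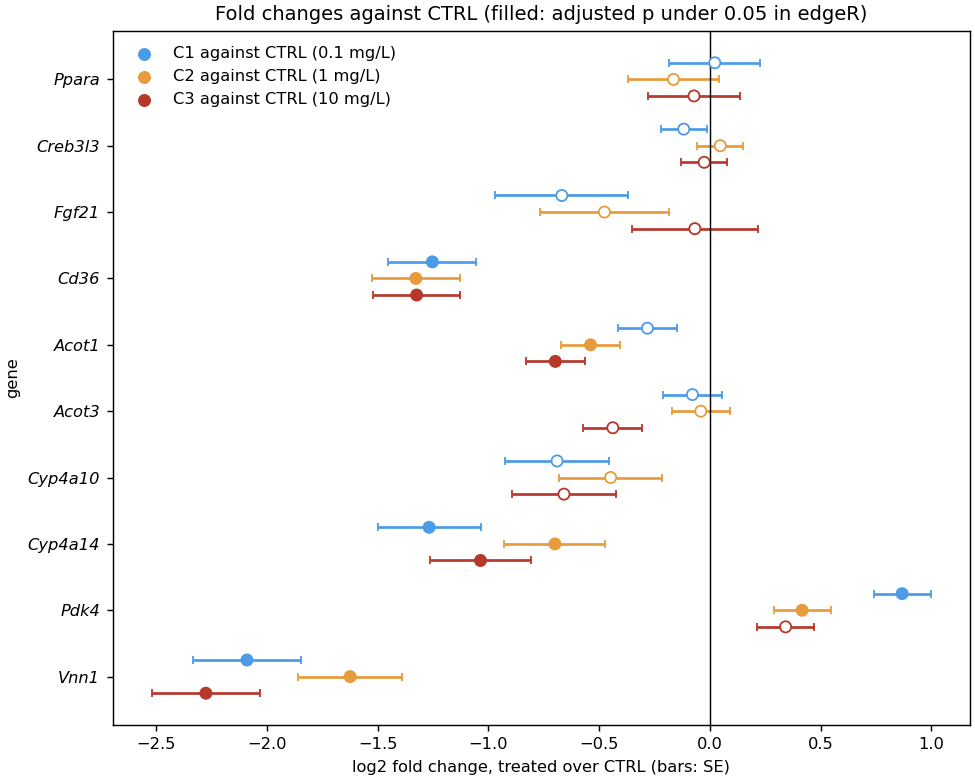
edgeR log2 fold changes of each treated pool over CTRL (x axis) for the 10 genes (y axis), with SE as bars and filled points where the adjusted p was under 0.05. Vnn1 lies between -2.28 and -1.62 and Cd36 between -1.33 and -1.25, while Ppara and Creb3l3 lie around 0.

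Between treated pools, edgeR called 0 of the 10 genes in C2 against C1, in C3 against C1 and in C3 against C2, where 2.06%, 0.87% and 1.44% of all genes were called. At an unadjusted p under 0.05 the counts were 2, 3 and 2, and the share of all genes past that p is not given here. DESeq2 called 1 in each, Pdk4 in C2 against C1 and in C3 against C1 and Acot3 in C3 against C2 (-0.42). Over all genes DESeq2 called 762, 289 and 614 in these comparisons. Pdk4 was lower in both C2 and C3 than in C1, with no overlap of libraries (-0.45 ± 0.13 in C2 and -0.53 ± 0.13 in C3), and neither difference was called by edgeR. The difference of C3 was called by edgeR with at least 5 CPM in 4 libraries (-0.52) and without C2-3, C2-4 and C3-4 (-0.46), and that of Acot3 in C3 against C2 likewise (-0.44 and -0.45). Vnn1 in C3 against C2 had a log2 fold change of -0.65 ± 0.24, with overlapping libraries, and was called without C2 replicate 3 (-0.86) and without C2-3, C2-4 and C3-4 (-0.90). For Cd36 the differences were -0.07 ± 0.20 in C2 against C1 and 0.00 ± 0.20 in C3 against C2, with a 95% interval from -0.38 to 0.39 for the second. In the fit without C2-3, C2-4 and C3-4 the direction of Cd36 in C2 against C1 turned, at 0.34 and called, and C3 against C2 stood at -0.36 and was not called. Without C2-3, C2-4 and C3-4, edgeR called 4 higher and 1 lower in C2 against C1, 1 higher and 1 lower in C3 against C1, and 1 higher and 4 lower in C3 against C2, where 18.7%, 3.41% and 14.3% of all genes were called. In C2 against C1 these were Ppara (-0.75), Cd36 (0.34), Cyp4a10 (0.68), Cyp4a14 (1.00) and Vnn1 (0.86). In C3 against C1 they were Cyp4a14 (0.40) and Pdk4 (-0.46). In C3 against C2 they were Ppara (0.56), Acot3 (-0.45), Cyp4a10 (-0.48), Cyp4a14 (-0.60) and Vnn1 (-0.90). Creb3l3 in C3 against C2 turned from -0.07 to 0.01 in that fit and was called in neither.

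Counted by libraries that did not overlap, 1 gene was above and 5 were below CTRL in C1, where 18.2% of all genes did not overlap. In C2 these were 1 above and 4 below (20.7% of all genes), and in C3 0 above and 6 below (12.8%). Again nothing is read from the difference to the background.

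Within pool C2 the 4 libraries stem from the same pooled livers, so differences between them are not differences between animals. Comparing C2-3 and C2-4 with C2-1 and C2-2, Cyp4a10 averaged 195 against 393 CPM, Cyp4a14 26.3 against 52.7 CPM, Vnn1 6.56 against 12.99 CPM and Cd36 11.7 against 23.2 CPM. Ppara went the other way, at 74.2 against 36.9 CPM. Acot3 was lower by 0.31 on the log2 scale, Creb3l3 was higher by 0.24, and Acot1 and Pdk4 overlapped between the pairs. Of all genes tested, 34.1% were lower and 42.4% higher in both of these libraries than in both others. In C3-4, compared with the other C3 libraries, Cyp4a10 was lower by 0.84, Cyp4a14 by 0.78, Vnn1 by 0.71 and Cd36 by 0.19. The log2 differences of Acot3, Acot1 and Pdk4 there were -0.54, -0.44 and -0.25, and Ppara was higher, at 0.34. Creb3l3 and Fgf21 overlapped. Of all genes tested, 34.9% were lower and 37.2% higher in C3-4 than in all other C3 libraries.

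**Figure D3:**
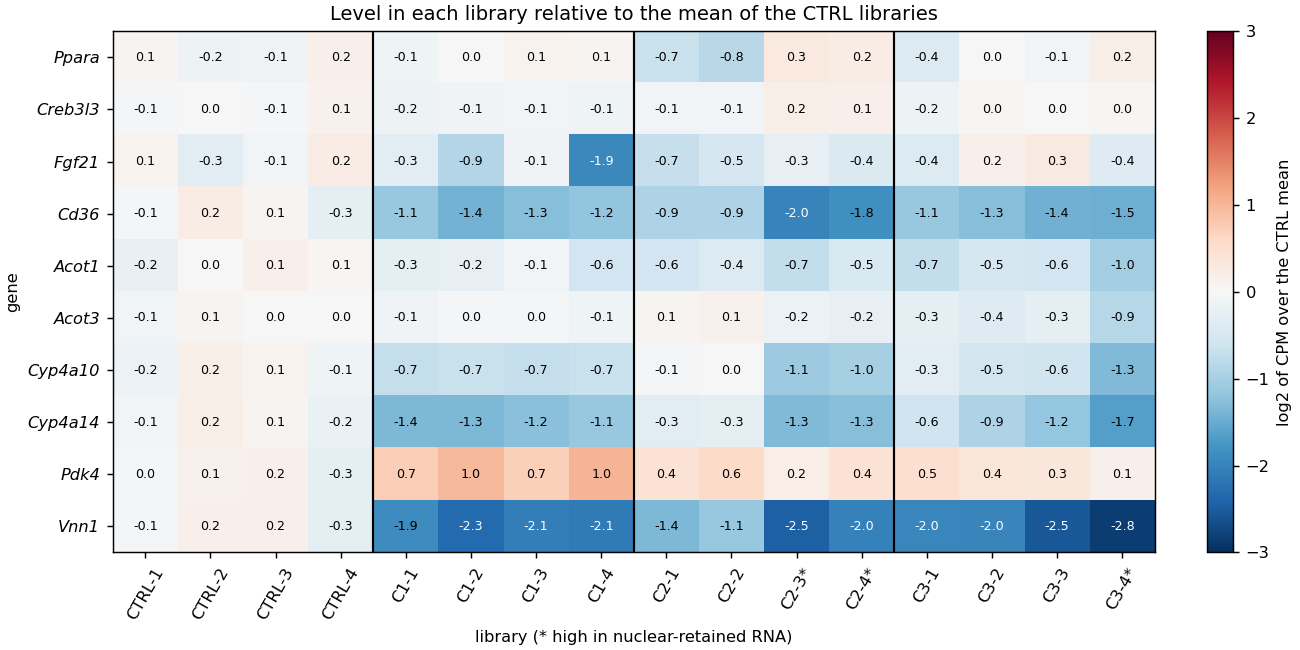
Log2 of the CPM of each gene (rows) in each library (columns) over the mean of the CTRL libraries, with blue below and red above that mean, and an asterisk at libraries C2-3, C2-4 and C3-4. Vnn1, Cd36 and Cyp4a14 are below 0 in all 12 treated libraries, Pdk4 is above 0 in all 12, and Cyp4a10 is near 0 in C2-1 and C2-2.

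Markers of other cell types were read in the same libraries. Vnn1, Cd36 and Creb3l3 are also expressed in intestine, and summed enterocyte markers other than Fabp2, which liver expresses, ranged from 6.18 to 10.97 CPM in CTRL, 25.6 to 34.8 CPM in C1, 0.336 to 0.752 CPM in C2 and 0.275 to 1.14 CPM in C3. Of 12 enterocyte markers 9 were tested, and 5 were called higher in C1, 7 lower in C2 and 7 lower in C3. These markers were highest in C1 and lowest in C2 and C3. All counts of called markers here stand against 2.32%, 18.3% and 1.4% of all genes called in C1, C2 and C3. Some in C2, such as 2 of 8 for Kupffer cells, lie near that of all genes. Summed markers of Kupffer cells, which also express Cd36, were 241 to 264 CPM in C1, 181 to 271 CPM in C2 and 213 to 305 CPM in C3, against 234 to 304 CPM in CTRL. Of these 8 markers, Marco (log2 fold change -1.06 ± 0.23) and Csf1r (-0.38 ± 0.10) were called lower in C2, and 0 were called in C1 and C3. Every treated library of Marco lay below those of CTRL (-0.75 ± 0.23 in C1 and -0.71 ± 0.23 in C3). Adipocytes also express Cd36, and of 7 adipocyte markers 3 were tested. Fabp4 was called higher in C2, at 5.82 ± 1.79 CPM against 3.31 ± 0.307 CPM in CTRL, and Pck1, which hepatocytes also express, was called lower in C2. Cidec was called in none, at a log2 fold change of -0.56 ± 0.28 in C1, -0.49 ± 0.27 in C2 and -0.58 ± 0.27 in C3. Its libraries lay below those of CTRL in C1 and C3 and overlapped them in C2. Adipoq averaged 0.537 ± 0.770 CPM in C2 and 0.0665 CPM in CTRL, Plin1 0.456 ± 0.730 and 0.0758 CPM and Cfd 0.539 ± 0.681 and 0.0402 CPM. Each had overlapping libraries, an SD in C2 above its mean there and a level too low to be tested. Lep had 0 counts in C1, C3 and CTRL. The 8 kidney tubule markers summed to 53.4 to 60.1 CPM in C1, 55.3 to 82.1 CPM in C2 and 43.5 to 58.2 CPM in C3, against 48.4 to 61.8 CPM in CTRL. Umod and Kap had 0 counts in every library and most of the sum was Aqp1, which averaged 47.2 to 64.3 CPM, with Slc5a2 at 4.21 to 4.56 CPM. Summed muscle markers were 1.42 to 2.18 CPM in C1, 0.792 to 3.62 CPM in C2 and 2.48 to 8.82 CPM in C3, against 2.80 to 8.40 CPM in CTRL. Sinusoidal endothelial markers, a cell type that also expresses Cd36, summed to 170.6 to 186.5 CPM in C1, 211 to 255 CPM in C2 and 158 to 200 CPM in C3, against 145 to 153 CPM in CTRL, with 6 of 8 called higher in C2. Erythroid markers summed to 1502 to 1955 CPM in C1, 701 to 1784 CPM in C2 and 1091 to 1642 CPM in C3, against 2114 to 2763 CPM in CTRL. Every treated library was below every CTRL library, and 3 of 5 erythroid markers were called lower in C2 and 2 in C3. Stellate cell markers summed to 144 to 167 CPM in C1, 134 to 232 CPM in C2 and 139.98 to 169.6 CPM in C3, against 138 to 152 CPM in CTRL, and those of cholangiocytes to 26.6 to 34.8 CPM in C1, 31.5 to 42.4 CPM in C2 and 26.2 to 35.6 CPM in C3, against 24.8 to 29.3 CPM in CTRL. The hepatocyte sum was 67378 to 74755 CPM in C1, 32167 to 76386 CPM in C2 and 38639 to 67386 CPM in C3, against 71388 to 85967 CPM in CTRL. Most of that sum was Alb. Of the 10 hepatocyte markers, 4 were called lower in C2, where 18.3% of all genes were called, and 0 in C1 and C3. The median log2 fold change of these markers was -0.13 in C1, -0.52 in C2 and -0.35 in C3. That of the 10 fatty acid handling genes, which were chosen with these contrasts known, was -0.48, -0.46 and -0.55. Nothing is read from the difference between these medians. The part of any of these cell types in the lower levels of Vnn1, Cd36 and Cyp4a14 was not tested.

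Across the 16 libraries the levels of Cyp4a10 and Cyp4a14 were the most alike of the 45 pairs of these genes (Pearson r of log2 CPM = 0.95), followed by Cd36 and Vnn1 (0.94) and Cyp4a14 and Vnn1 (0.93). The lowest r was that of Fgf21 and Pdk4 (-0.71), and Ppara with Cyp4a10 had -0.61. Libraries share pools and differ in nuclear RNA, so r is given as a description with no p. Among 11987 other genes, Cyp4a10 was most like Acat1 and Decr1 (both 0.98), which encode mitochondrial enzymes of ketone body and unsaturated fatty acid breakdown. Cyp4a14 was most like Serpina7 (0.97), Vnn1 most like St3gal5 and Pctp (both 0.95), and Cd36 most like Rcl1 (0.95). Ppara was most like Bhlhe40 and Cyp4f15 (both 0.96) and Pdk4 most like Cyp2b13 (0.92).

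Other genes of fatty acid handling were taken from 11 lists drawn up by role, with 137 genes of which 129 were tested and none is among the 10. The lists were drawn up with earlier results of these data known. In C1 3 were called higher and 10 lower, in C2 5 higher and 40 lower, and in C3 0 higher and 8 lower, which is 13, 45 and 8 of 129 where 2.32%, 18.3% and 1.4% of all genes were called. The counts of single lists below stand against the same shares, and some of them in C2, such as 3 of 14 or 2 of 10, lie near that of all genes. Their median log2 fold change was -0.14 in C1, -0.27 in C2 and -0.22 in C3, beside the medians of all genes given above. The counts were 7 higher and 41 lower in C1, 14 higher and 51 lower in C2, and 2 higher and 30 lower in C3 when C2-3, C2-4 and C3-4 were left out, where 14.6%, 28% and 6.09% of all genes were called. Adjusted p-values below are those of edgeR. DESeq2 counts of single lists stand against 924, 4188 and 768 of all genes called by DESeq2 in C1, C2 and C3. The share of all genes at an unadjusted p under 0.05 is not given here.

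**Figure D4:**
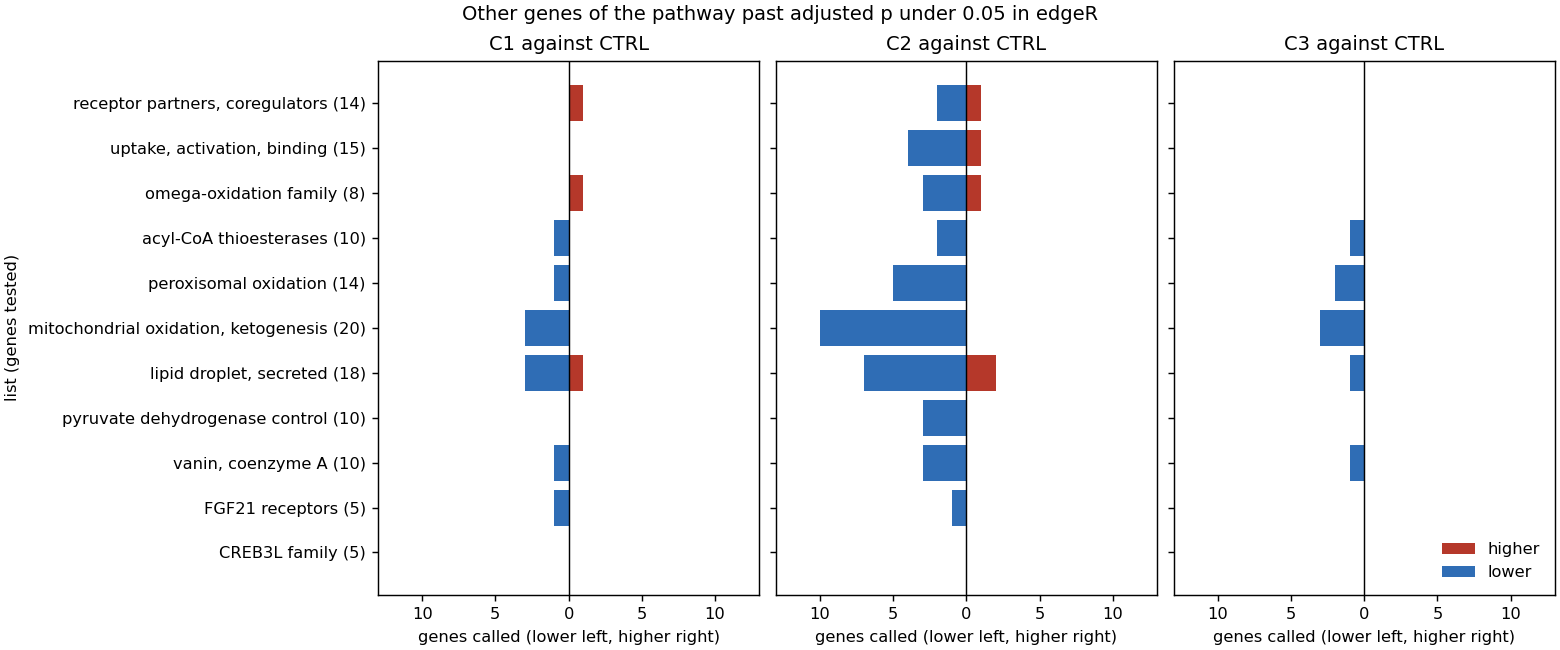
Number of listed genes called lower (blue, left of 0) and higher (red, right of 0) in each treated pool against CTRL (x axis), by list (y axis, with the number of genes tested). The list of mitochondrial oxidation and ketogenesis is the longest and holds the most genes called lower in C2 (10) and C3 (3), in C1 it and the lipid droplet list hold 3 each, and no gene of the CREB3L family was called.

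Of 14 receptor partners and coregulators, 1 was called higher in C1, 1 higher and 2 lower in C2, and 0 in C3. Rxra, the DNA-binding partner of PPARα, averaged 147 ± 5.97 CPM in C2 and 237 ± 36.6 CPM in CTRL (log2 fold change -0.69 ± 0.13, edgeR adjusted p = 0.00153). Ppargc1a, a coactivator of fasting metabolism, averaged 12.7 ± 0.745 CPM in C1 and 8.88 ± 0.606 CPM in CTRL (0.52 ± 0.10, edgeR adjusted p = 0.0124), a call lost without C1 replicate 4 or CTRL replicate 4. Crebbp, an acetyltransferase coactivator, was higher in C2 (0.67 ± 0.14, edgeR adjusted p = 0.00441), and Pparg, the adipose relative of Ppara, was lower in C2 (-1.14 ± 0.26, edgeR adjusted p = 0.00656). In C3 2 of the 14 had an unadjusted p under 0.05 and DESeq2 called 1.

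Of 15 genes of uptake, activation and binding of fatty acids, 1 was called higher and 4 lower in C2, and 0 in C1 and C3 by edgeR, where 5 in each had an unadjusted p under 0.05 and DESeq2 called 3 in each. The level of Got2, a mitochondrial aminotransferase also found at the plasma membrane as a fatty acid binding protein, was 176 ± 16.4 CPM in C2 and 351 ± 64.3 CPM in CTRL (edgeR adjusted p = 0.000463). Fabp4 was higher in C2 (0.80 ± 0.19, edgeR adjusted p = 0.00900).

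Of 8 tested relatives in omega oxidation, 1 was called higher in C1, 1 higher and 3 lower in C2, and 0 in C3, where 2 had an unadjusted p under 0.05 and DESeq2 called 1. Cyp4a32, which holds 515 of the 2060 stretches of 50 bases in Cyp4a10, averaged 41.7 ± 2.02 CPM in C1 and 27.6 ± 1.97 CPM in CTRL (log2 fold change 0.59 ± 0.11, edgeR adjusted p = 0.00530), a rise in the libraries where Cyp4a14 was called lower and Cyp4a10 stood at -0.69. Cyp4a31 averaged 15.3 ± 1.17 CPM in C1 and 16.1 ± 1.55 CPM in CTRL and was not called. Cyp4a12a and Cyp4a12b averaged under 0.1 CPM in each group and were not tested.

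Of 10 other acyl-CoA thioesterases, 1 was called lower in C1, 2 in C2 and 1 in C3. Acot2, the mitochondrial relative of Acot1, averaged 9.51 ± 1.153 CPM in C2 and 8.56 ± 1.37 CPM in C3, against 14.3 ± 1.61 CPM in CTRL. The log2 fold changes were -0.59 ± 0.14 (edgeR adjusted p = 0.00761) and -0.74 ± 0.14 (edgeR adjusted p = 0.00986), close to those of Acot1, with which it shares sequence, and the C3 call was lost without CTRL replicate 3. Acot5, of the same gene cluster and likewise uncertain for shared sequence, averaged 1.80 ± 0.301 CPM in C2 and 4.51 ± 0.260 CPM in CTRL (edgeR adjusted p = 0.000887). Acot11 was lower in C1 (-0.62 ± 0.12, edgeR adjusted p = 0.00737).

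Of 14 genes of peroxisomal oxidation, 1 was called lower in C1, 5 in C2 and 2 in C3. Pex11a, a peroxisome division gene, averaged 59.1 ± 2.32 CPM in C1, 67.8 ± 3.53 CPM in C2 and 64.6 ± 4.09 CPM in C3, against 95.7 ± 9.11 CPM in CTRL. It was called in each comparison whichever library was left out (edgeR adjusted p = 0.000730, 0.00219 and 0.00457). Ehhadh, a textbook PPARα target of the same organelle, was not called, with log2 fold changes of -0.11 ± 0.21 in C1, -0.40 ± 0.21 in C2 and -0.28 ± 0.21 in C3. It was looked up after its values were seen.

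Of 20 tested genes of mitochondrial oxidation and ketogenesis, 3 were called lower in C1, 10 in C2 and 3 in C3, with 0 higher. Cpt1a, the carnitine acyltransferase that admits fatty acids to mitochondria, was lower in C3 (log2 fold change -0.53 ± 0.11, edgeR adjusted p = 0.0258), a call kept in only 1 of 8 fits that left out a library. Acadm was lower in C1 (-0.59 ± 0.14, edgeR adjusted p = 0.0322), a call kept in 0 of 8.

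Of 18 tested genes of lipid droplets, lipolysis and secreted factors, 1 was called higher and 3 lower in C1, 2 higher and 7 lower in C2, and 1 lower in C3. Retsat, a retinol saturase, averaged 120.2 ± 10.7 CPM in C1, 129.6 ± 28.2 CPM in C2 and 149 ± 34.9 CPM in C3, against 292 ± 24.7 CPM in CTRL. It was called in each comparison with each library left out (edgeR adjusted p = 0.000707, 0.000328 and 0.00826). Apoa4, an apolipoprotein gene, averaged 330 ± 55.2 CPM in C2 and 786 ± 112 CPM in CTRL (-1.25 ± 0.20, edgeR adjusted p = 0.000479). G0s2, an inhibitor of lipolysis, was higher in C1 (1.06 ± 0.24, edgeR adjusted p = 0.0237), a call kept in 1 of 8 fits that left out a library.

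Among 10 tested genes that control pyruvate dehydrogenase, the relatives Pdk1 and Pdk2 did not follow Pdk4. In C1 and C3 edgeR and DESeq2 called 0 of the 10, and 0 had an unadjusted p under 0.05. In C2 3 were called lower, with Pdk1 at -0.38 ± 0.10 (edgeR adjusted p = 0.0198), Pdk2 at -0.71 ± 0.21 (edgeR adjusted p = 0.0276) and Pdpr, a regulator of the dehydrogenase phosphatase, at -0.88 ± 0.16 (edgeR adjusted p = 0.00123). The Pdpr call held with each library left out, while that of Pdk2 was lost without C2 replicate 1 or CTRL replicate 4, and that of Pdk1 in 4 of 8 such fits.

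Of 10 other genes of the vanin family and of CoA synthesis, 1 was called lower in C1, 3 in C2 and 1 in C3. Vnn3, the neighbouring relative of Vnn1, averaged 17.5 ± 1.28 CPM in C1, 18.3 ± 3.49 CPM in C2 and 20.0 ± 5.05 CPM in C3, against 36.9 ± 2.85 CPM in CTRL. Its log2 fold change was -1.07 ± 0.17 in C1 (edgeR adjusted p = 0.00167) and -0.88 ± 0.16 in C3 (edgeR adjusted p = 0.00986), and C2 lay between them (edgeR adjusted p = 0.000646). The calls held with each library left out, and the changes had the direction of those of Vnn1 at a smaller size. In C2 the CoA synthesis genes Coasy (log2 fold change -0.66 ± 0.20, edgeR adjusted p = 0.0320) and Pank3 (-0.56 ± 0.16, edgeR adjusted p = 0.0251) were lower, each a call kept in 3 of 8 fits that left out a library and lost without C2 replicate 3 or 4 or CTRL replicate 2, 3 or 4. Among 5 receptors and co-receptors of FGF21, 1 was called lower in C1 and 1 in C2, and 0 in C3, where 1 had an unadjusted p under 0.05 and DESeq2 called 1. In C1 and C2 this was Klb, the β-klotho co-receptor, which averaged 14.1 ± 1.01 CPM in C2 and 23.7 ± 1.56 CPM in CTRL (-0.75 ± 0.11, edgeR adjusted p = 0.000364), while its C1 call was kept in 2 of 8 fits that left out a library. None of the 5 tested CREB3L relatives was called by edgeR, while 1, 3 and 1 of them had an unadjusted p under 0.05 and DESeq2 called 1, 1 and 0 for the pools by rising concentration.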

How the data were processed

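RNA was measured in 16 liver libraries, 4 in each of 4 groups. Per the labels' protocols, RNA was isolated on RNeasy columns and its poly(A) fraction went into NEBNext Ultra II Directional libraries. STAR 2.5.2b, GRCm38, FastQC 0.11.5 and bcl2fastq 2.19.1.403 are named per the submitters' processing notes. No counting program, strand setting or annotation is named in the sources used here. The authors deposited raw counts of reads per gene. Of 53372 genes, 17810 passed filterByExpr. Robust quasi-likelihood tests of edgeR 4.0.16 (R 4.3.3) used TMM scaling and 1 model of all 16 libraries with 12 residual degrees of freedom and no replicate block. The 6 comparisons were adjusted by Benjamini-Hochberg over all genes tested, and the test was tried on simulated counts. No library was taken for a copy of another (chi-square per degree of freedom 5.63 to 782 over 24 pairs). The 10 genes and all gene lists were chosen with earlier results of these data known. Named genes of the lists were up to 3 called genes with the widest change per list and comparison, and for each of the 10 genes the 2 genes most alike. Some genes that this rule names are not reported here, and the lists' counts include them. Other settings were DESeq2 1.42.0, limma-voom (limma 3.58.1), other scalings and filters, subsets of libraries and a replicate block. Sequences came from RefSeq (GRCm38.p6) and GENCODE M21.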

Additional observations from a re-analysis of the deposited data

How the results depend on the processing

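Over 1074 combinations of the 10 genes, comparison and other setting, 25 calls were gained, 17 of them without C2-3, C2-4 and C3-4, and 28 were lost. No change called in the main fit turned its sign, while 47 values that were not called there did. Among these, Cd36 in C2 against C1 turned from -0.07 to 0.34 without C2-3, C2-4 and C3-4 and was called in that setting. Fgf21 was not tested with at least 5 CPM in 4 libraries. Of 47 called changes of listed genes named by rule, 30 were kept with each library left out and 34 under each other setting, and none changed sign. The number of the 10 genes called was 3 in C2 against CTRL both with no filter and in a fit of only the 2 groups. DESeq2 called 1 in C2 against C1, 1 in C3 against C1 and 1 in C3 against C2, where it called 762, 289 and 614 of all genes. At least 5 CPM gave 1 in C3 against C1 and 1 in C3 against C2, where 91 and 224 of all genes were called. Without C2-3, C2-4 and C3-4 the number of the 10 genes called was 5, 2 and 5 in C2 against C1, C3 against C1 and C3 against C2. Against CTRL, listed genes called without those libraries numbered 48 in C1 and 32 in C3, and all genes called 2688 in C1, 5177 in C2 and 1125 in C3. DESeq2 gave 23 listed and 924 genes in C1 and 22 and 768 in C3. A fit of only the 2 groups gave 47 listed and 2557 genes in C1 and 24 and 1492 in C2, and no filter gave 5 listed genes in C3. With 1 library left out, the number of the 10 genes called ranged from 4 to 4 in C1, 3 to 4 in C2 and 2 to 4 in C3, and from 0 to 0 in C2 against C1, 0 to 0 in C3 against C1 and 0 to 1 in C3 against C2. Listed genes ranged from 6 to 11, 33 to 59 and 4 to 7, and all genes from 159 to 294, 1972 to 4492 and 97 to 210, in C1, C2 and C3. Upper-quartile scaling moved the median of all genes to 0.10 in C2 and gave 1969 higher and 1395 lower genes there, against 1430 and 1824 with TMM. No pairing by replicate number was assumed in the main model. Of 24 same-numbered pairs 8 had a correlation of deviations over 0.1, with all 24 from -0.30 to 0.51. Of the 16 libraries 5 were most like one of their own number. These values do not settle whether some libraries were paired. The replicate block gave 435, 3426 and 256 genes in C1, C2 and C3 and changed no call of the 10 genes. In C1 against CTRL, neither leaving out C2-3, C2-4 and C3-4 nor a fit of only the 2 groups removes a C1 or CTRL library. The main model shares 1 estimate of the spread over all 16 libraries, those of C2 among them. The causes of the moves between settings were not tested. Fgf21, at 8 to 44 counts a library, had the fewest counts of the 10 genes and so the widest counting error.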
